A study of Mus musculus with 10 samples.

Results

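Hhex, Tle3, Klf2, Klf3, Zbtb32, Cd38, Cd80, Pdcd1lg2 and Nt5e are 9 genes known for their part in the formation or the surface identity of memory B cells. They were picked by gene symbol from the 55421 genes of a deposited count table, and all 9 passed the filter on low counts and were among the 16596 genes tested. RNA was sequenced from germinal center B cells of the spleen, enriched with magnetic beads for the lectin PNA on day 10 after immunization, from C57BL/6 mice of 8 to 10 weeks. Mice were labelled Pbrm1-/- (HOMO) or Pbrm1+/+ (WT), and each genotype gave a fraction labelled CC and a fraction labelled CB, abbreviations that the labels do not spell out. The 10 libraries were 2 HOMO CC, 3 WT CC, 2 HOMO CB and 3 WT CB libraries. The Pbrm1 protein carries bromodomains and belongs to PBAF, one of the SWI/SNF complexes that remodel chromatin.

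The labels give neither the driver of the deletion, nor the deleted segment, nor the immunogen, nor whether replicates were separate animals, so p-values rest on library-to-library spread that may be technical in part. The columns of the table carry the letters AID, which the labels do not explain. HOMO libraries are called 2 and 3 as in the table.

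In a germinal center, B cells divide and mutate their antibody genes, are selected for antigen binding, and leave as memory B cells or plasma cells or go round again. Hhex, a homeodomain transcription factor, and Tle3, a corepressor of the Groucho family that Hhex recruits, promote memory B cell formation in mice. Klf2 and Klf3 are zinc finger factors of the Krüppel-like family, of which Klf2 is best known for control of lymphocyte homing and egress. Zbtb32, a BTB zinc finger factor, restrains the recall response of memory B cells in mice. Cd38, Cd80, Pdcd1lg2 and Nt5e encode surface proteins that are used to tell mouse memory B cells from other B cells, or to divide them into subsets.

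The targeted gene, Pbrm1, had 152 and 150 CPM (read counts scaled to library size with TMM factors) in HOMO CC, against 239, 239 and 250 CPM in WT CC, and 178 and 164 CPM in HOMO CB, against 319, 309 and 312 CPM in WT CB. Both HOMO libraries were below all WT libraries in each fraction, and the counts cover the whole gene, so a transcript that lacks only a deleted segment is still counted. Library totals ran from 9954006 to 67625110 counts, and the members had between 16 counts (Klf3 in WT CB library 2) and 7791 counts (Nt5e in HOMO CB library 3) per library. The summed level of 6 pan B cell markers was 4905 to 6215 CPM in the 10 libraries. The summed level of 15 macrophage markers was 41.9 and 37.7 CPM in HOMO CC, 1166, 296 and 73.2 CPM in WT CC, 31.3 and 16.1 CPM in HOMO CB and 29.0, 16.4 and 25.2 CPM in WT CB. Both libraries of WT number 3 stood apart from WT numbers 1 and 2, and this bears on Klf2 and Klf3 below. Fewer cells of a type and less RNA per cell cannot be told apart in these bulk samples.

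**Figure D1:**
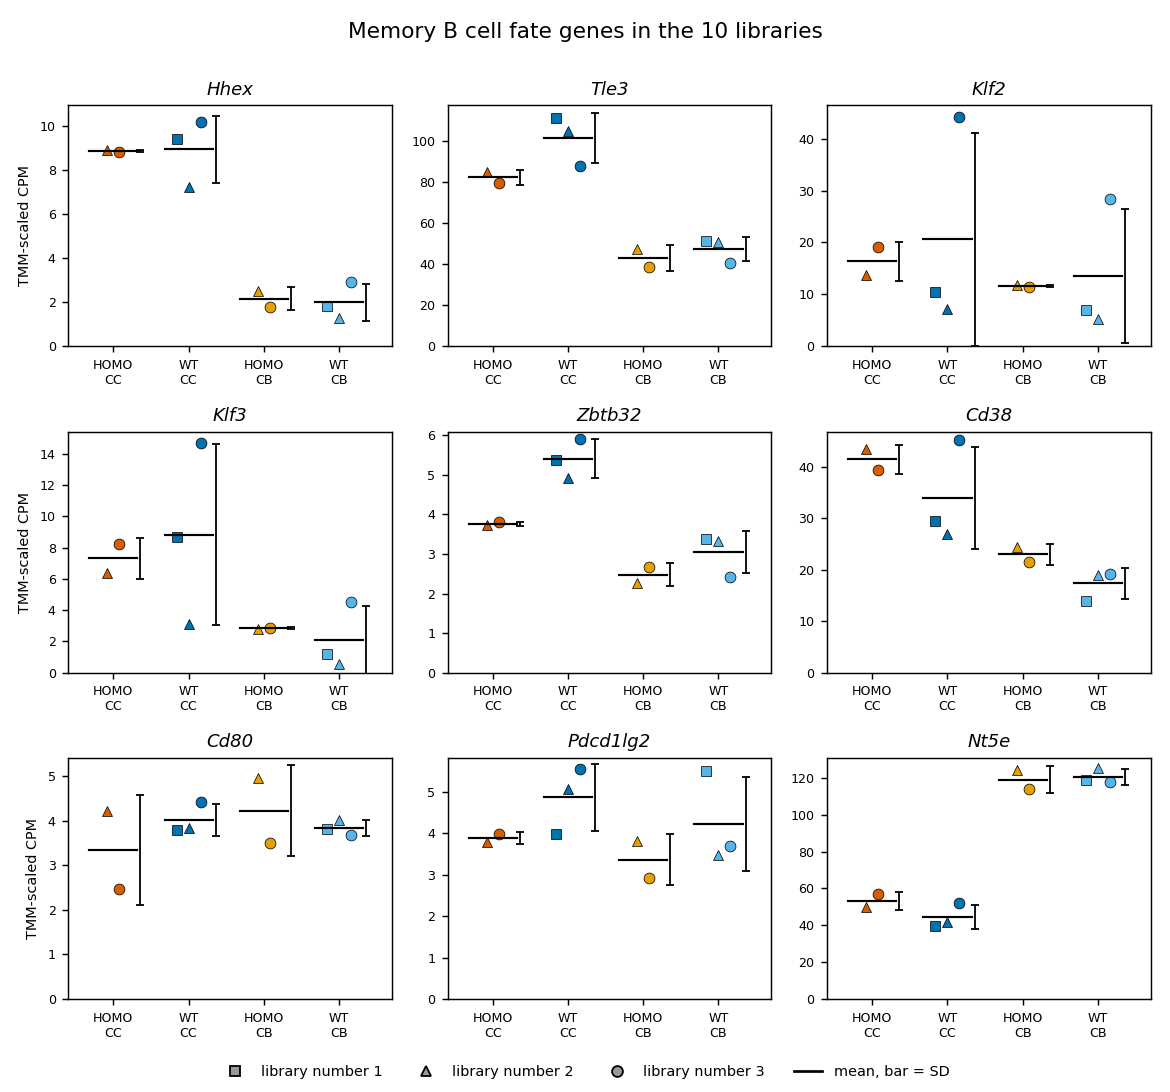
TMM-scaled CPM (vertical axis) of each of the 9 genes in the 10 libraries, with points for libraries, lines for group means and bars for SDs, which are cut at 0, in the order HOMO CC, WT CC, HOMO CB and WT CB. Hhex and Tle3 lie higher and Nt5e lower in every CC library than in every CB library, and 1 WT library of each fraction lies far above the others for Klf2 and Klf3.

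Between the CC and CB fractions of HOMO mice, Hhex and Tle3 rose in CC and Nt5e fell (edgeR's quasi-likelihood test, adjusted p under 0.05). That is 2 of 9 members higher, against 2.46% of all genes tested, and 1 of 9 lower, against 2.98% (3 in all, against 5.45%). In WT mice, Hhex, Tle3, Cd38 and Zbtb32 rose in CC and Nt5e fell, which is 4 of 9 members higher, against 11.6% of all genes, and 1 of 9 lower, against 12.3% (5 in all, against 23.9%). Klf2, Klf3, Cd80 and Pdcd1lg2 passed in neither genotype. Fractions did not overlap for 6 members higher in HOMO CC (28.8% of all genes), 1 lower in HOMO CC (33.2%), 4 higher in WT CC (16.5%) and 1 lower in WT CC (17.9%). Without WT CC libraries 1 and 2, in which the macrophage sum was highest, Hhex, Tle3 and Cd38 stayed higher and Nt5e lower in WT CC. WT CC then holds library 3 alone, which stands apart, and is assumed to vary like the other groups. No call of that fit is given here. The part of macrophage RNA in the WT calls was not tested. The median log2 change of the members, CC over CB, was 0.60 in HOMO and 0.83 in WT, beside -0.01 and 0.01 over all genes tested. The promoters of Hhex, Tle3 and Nt5e, the 3 members called in both genotypes, are shown because 2 of these genes rose and the other fell across the same fractions. They run from 250 bases before to 50 after the start site, from RefSeq on GRCm38.p6, are written 5′ to 3′ on the gene's strand, and have each CACCC or its reverse complement GGGTG in capitals.

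Hhex (chr19:37434591-37434890, + strand): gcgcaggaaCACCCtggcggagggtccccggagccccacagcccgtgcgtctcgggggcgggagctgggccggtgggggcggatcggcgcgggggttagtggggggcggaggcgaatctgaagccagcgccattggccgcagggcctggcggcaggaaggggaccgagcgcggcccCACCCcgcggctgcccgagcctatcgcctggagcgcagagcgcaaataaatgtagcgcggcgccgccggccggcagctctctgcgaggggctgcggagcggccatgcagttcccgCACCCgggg

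Tle3 (chr9:61372116-61372415, + strand): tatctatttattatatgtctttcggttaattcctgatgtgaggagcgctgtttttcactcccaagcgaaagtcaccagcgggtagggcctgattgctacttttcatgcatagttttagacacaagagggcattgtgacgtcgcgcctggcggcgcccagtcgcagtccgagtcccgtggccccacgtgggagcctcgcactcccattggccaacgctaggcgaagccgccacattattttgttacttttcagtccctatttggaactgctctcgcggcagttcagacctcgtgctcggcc

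Nt5e (chr9:88327359-88327658, + strand): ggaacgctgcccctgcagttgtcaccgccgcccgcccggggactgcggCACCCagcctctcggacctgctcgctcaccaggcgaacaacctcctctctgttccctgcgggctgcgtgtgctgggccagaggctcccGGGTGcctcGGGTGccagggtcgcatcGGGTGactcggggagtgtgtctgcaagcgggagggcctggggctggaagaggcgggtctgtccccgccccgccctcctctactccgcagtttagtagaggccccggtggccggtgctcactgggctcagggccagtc

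The letters CACCC, searched on both strands and known as the core of the box that Krüppel-like factors bind, occurred 3 times in the Hhex window, 4 times in the Nt5e window and 0 times in the Tle3 window. Over 32851 promoters of the same length 57.5% held at least 1 match and 3.10% held at least 4. The letters TTCNNNGAA occurred in none of the 9 members' windows, against 8.30% of all promoters. These matches are descriptions of the letters and not sites. The Nt5e start site of this table lies 412 bases inside the gene of the annotation used for the counts.

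Hhex lies on mm10 chromosome 19, from 37434810 to 37440731. It had 8.91 and 8.82 CPM in HOMO CC, against 2.53 and 1.80 CPM in HOMO CB. In WT it had 9.41, 7.25 and 10.2 CPM in CC, against 1.81, 1.27 and 2.93 CPM in CB. No CC library overlapped a CB library in either genotype, and the lowest CC library, at 7.25 CPM, lay well above the highest CB library. The log2 change of Hhex, CC over CB, was 2.05 in HOMO (SE 0.37, edgeR adjusted p = 0.00886) and 2.13 in WT (SE 0.30, edgeR adjusted p = 0.000786), or 4.13-fold and 4.38-fold. It was the steepest rise among the members that passed. The WT call held in all 23 alternatives. The HOMO call was lost when any single HOMO library was left out (edgeR adjusted p = 0.0809 without CC library 2, 0.0662 without CC library 3, 0.0537 without CB library 2 and 0.14 without CB library 3).

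Tle3 lies on chromosome 9, from 61372366 to 61418497. Tle3 had 84.7 and 79.7 CPM in HOMO CC, against 47.3 and 38.4 CPM in HOMO CB. In WT, Tle3 had 111, 105 and 87.8 CPM in CC, against 51.2, 50.6 and 40.6 CPM in CB. As with Hhex, the fractions did not overlap in either genotype. The log2 change was 0.94 in HOMO (SE 0.16, edgeR adjusted p = 0.00591) and 1.10 in WT (SE 0.13, edgeR adjusted p = 0.000261). Within WT numbers 1, 2 and 3 the log2 difference of Tle3, CC over CB, was 1.12, 1.05 and 1.11, a spread of 0.036 (SD). The call in HOMO was lost without HOMO CC library 2 (edgeR adjusted p = 0.0728), HOMO CC library 3 (0.0511) or HOMO CB library 3 (0.0915), and the WT call held in all 23 alternatives.

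Zbtb32 lies on the minus strand of chromosome 7, from 30589681 to 30598909, and was low in every library. Zbtb32 had 3.72 and 3.80 CPM in HOMO CC, against 2.27 and 2.68 CPM in HOMO CB. In WT it had 5.38, 4.92 and 5.90 CPM in CC, against 3.39, 3.33 and 2.43 CPM in CB. The fractions did not overlap in either genotype, and the gap was wider in WT number 3 (log2 difference 1.28) than in numbers 1 and 2 (0.67 and 0.56). The log2 change of Zbtb32 was 0.60 in HOMO (SE 0.29, edgeR adjusted p = 0.29) and 0.83 in WT (SE 0.23, edgeR adjusted p = 0.0238). The WT call was lost in edgeR without WT CB library 1 (adjusted p = 0.0586), WT CB library 2 (0.0525) or WT CC library 1 (0.0531), without both libraries of WT number 1 (0.112), 2 (0.0873) or 3 (0.0546), without WT CC libraries 1 and 2 (0.113), without WT number 3 once GC content was offset (0.0866), with only the groups compared (0.0571) and with no filter on low counts (0.0872).

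Cd38 encodes an ectoenzyme that consumes NAD, and in mice its protein is high on naive and memory B cells and low on germinal center B cells. The gene lies on chromosome 5, from 43868553 to 43912375. Cd38 had 43.5 and 39.5 CPM in HOMO CC, against 24.4 and 21.6 CPM in HOMO CB. In WT it had 29.5, 27.0 and 45.3 CPM in CC, against 13.9, 19.0 and 19.3 CPM in CB. All CC libraries lay above all CB libraries within each genotype, and WT CC library 3 stood above the other 2 WT CC libraries. Cd38 rose in WT, by 0.96 on the log2 scale (SE 0.19, edgeR adjusted p = 0.00547), a call that held in all 23 alternatives. In HOMO, whose libraries were paired in no fit, its log2 change was 0.85 (SE 0.24) and missed the threshold (edgeR adjusted p = 0.0608). It passed there in 12 of 23 alternatives, among them edgeR with the WT number as a fixed block (0.86, adjusted p = 0.00493), the random block in limma-voom (0.88, adjusted p = 0.0385) and edgeR without WT CC library 3 (adjusted p = 0.00814) or WT CB library 3 (0.0493). It did not pass when any single HOMO library was left out. Over the fits without 1 library its edgeR adjusted p reached 0.375.

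Nt5e encodes CD73, which turns extracellular AMP into adenosine, and marks many germinal center and memory B cells in mice. It lies on chromosome 9, from 88327197 to 88372092. Nt5e had 49.7 and 56.7 CPM in HOMO CC, against 124 and 114 CPM in HOMO CB. In WT it had 39.6, 41.9 and 52.2 CPM in CC, against 119, 126 and 118 CPM in CB. Nt5e was the only member that was lower in every CC library than in every CB library. The log2 change of Nt5e was -1.16 in HOMO (SE 0.14, edgeR adjusted p = 0.000978) and -1.44 in WT (SE 0.11, edgeR adjusted p = 2.93e-05), or 2.24-fold and 2.71-fold lower in CC. Both calls held in all 23 alternatives. Relative to the mean, the Nt5e values varied least of the members' between replicates in WT CB, where the mean was 121 ± 4.26 CPM (SD, n = 3).

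Cd80, a B7 protein that binds CD28 and CTLA4 on T cells, had 4.21 and 2.47 CPM in HOMO CC, 3.78, 3.83 and 4.42 CPM in WT CC, 4.94 and 3.50 CPM in HOMO CB and 3.82, 4.02 and 3.67 CPM in WT CB. Pdcd1lg2, which encodes PD-L2, a ligand of PD-1, had 3.78 and 3.99 CPM in HOMO CC, 3.98, 5.07 and 5.55 CPM in WT CC, 3.81 and 2.93 CPM in HOMO CB and 5.52, 3.47 and 3.69 CPM in WT CB. For both genes the CC and CB libraries overlapped in each genotype. The log2 change, CC over CB, of Cd80 was -0.32 in HOMO (SE 0.32) and 0.06 in WT (SE 0.25), and that of Pdcd1lg2 was 0.21 in HOMO (SE 0.32) and 0.20 in WT (SE 0.25). None of these passed in edgeR (adjusted p of at least 0.611), and with counts of 26 to 239 for Cd80 and 42 to 237 for Pdcd1lg2 per library a difference of the size of 1 SE was not detectable.

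**Figure D2:**
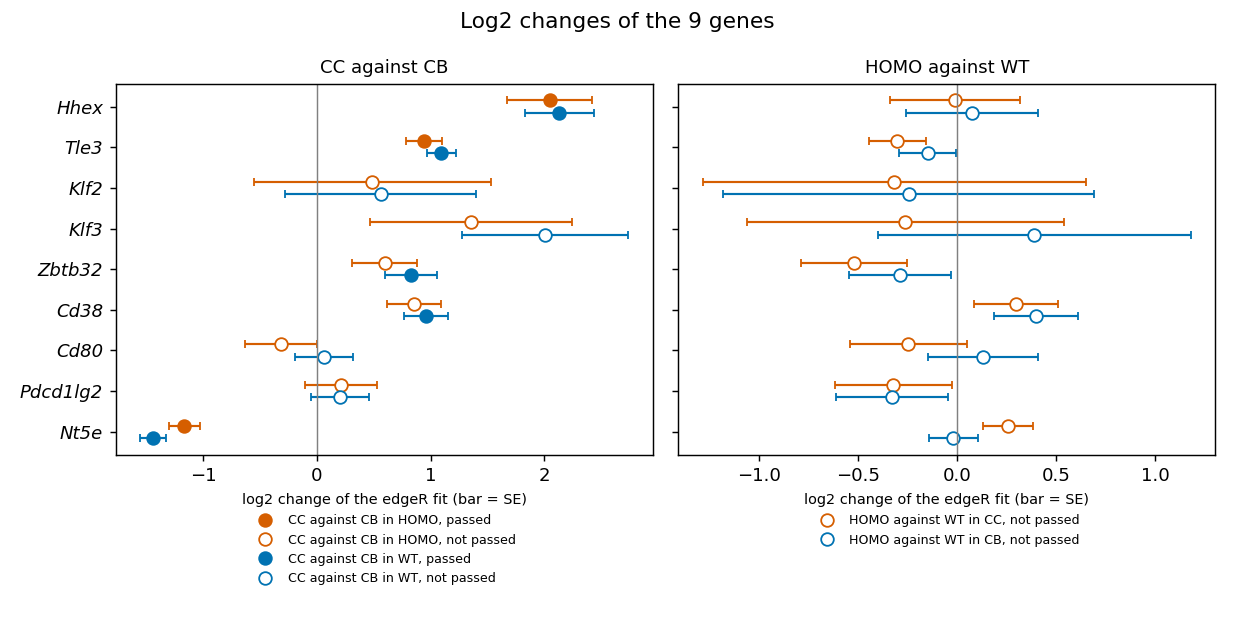
Log2 change of each member (horizontal axis) with its SE, for CC against CB in HOMO and WT and for HOMO against WT in CC and CB, with the members down the page and filled points for those with an edgeR adjusted p under 0.05. Hhex, Tle3 and Nt5e were called between fractions in both genotypes, Cd38 and Zbtb32 in WT, and no member was called between genotypes.

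Klf2 and Klf3 varied widely among the WT libraries. Klf2, on chromosome 8 from 72319033 to 72321656, had 13.7 and 19.1 CPM in HOMO CC, against 11.8 and 11.5 CPM in HOMO CB. In WT it had 10.4, 7.20 and 44.2 CPM in CC, against 7.05, 5.19 and 28.4 CPM in CB. WT number 3 was 4.03-fold to 6.14-fold above WT numbers 1 and 2 of the same fraction, and the HOMO libraries lay between them. Klf3, on chromosome 5 from 64803388 to 64832901, had 6.41 and 8.26 CPM in HOMO CC, against 2.82 and 2.88 CPM in HOMO CB. Klf3 in WT had 8.67, 3.11 and 14.7 CPM in CC, against 1.18, 0.550 and 4.55 CPM in CB. WT number 3 was again the highest of its group, by 1.69-fold to 8.27-fold.

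Between fractions the log2 change of Klf2 was 0.49 in HOMO (SE 1.04, edgeR adjusted p = 0.875) and 0.56 in WT (SE 0.84, adjusted p = 0.687), and that of Klf3 was 1.36 in HOMO (SE 0.89, adjusted p = 0.475) and 2.01 in WT (SE 0.73, adjusted p = 0.0774). Within a WT number the fractions differed more evenly: the log2 difference, CC over CB, was 0.57, 0.47 and 0.63 for Klf2 and 2.87, 2.50 and 1.69 for Klf3 in numbers 1, 2 and 3. With the WT number as a fixed block Klf3 rose in HOMO CC (1.35, edgeR adjusted p = 0.0129), where 5 of 9 members were called, Cd38 among them, against 13.8% of all genes. The HOMO libraries carried no block, so this HOMO comparison stayed unpaired, and the SE of Klf3 was 0.30, against 0.89 without the block. With the same block both genes rose in WT CC in edgeR (0.56, adjusted p = 0.00854 for Klf2 and 2.28, adjusted p = 0.000114 for Klf3), where 7 of 9 members were called, against 35.4% of all genes. The random block in limma-voom called Klf3 in WT (1.97, adjusted p = 0.0243) but neither Klf3 in HOMO (1.32, adjusted p = 0.401) nor Klf2 in WT (0.21, adjusted p = 0.817). In WT, Klf3 passed as well in edgeR when WT CC library 2 (2.42, adjusted p = 0.0456) or CB library 3 (3.35, adjusted p = 0.00459) was left out, without both libraries of WT number 3 (2.79, adjusted p = 0.000674) and with DESeq2 (2.07, adjusted p = 0.0487). Klf2 in WT turned to -0.64 without WT CC library 3 and was 1.74 without WT CB library 3, with neither called. It passed in HOMO in edgeR fitted to the HOMO libraries alone (0.51, adjusted p = 0.0343) and in WT with no filter on low counts (0.53, adjusted p = 0.0184). The exons of Klf3 share 404 bases with the antisense gene Gm20033, which had 27 counts over the 10 libraries, and whether the counting used strand is not given in the sources used here.

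The promoters of the pair are shown because Klf2 and Klf3 were both highest in WT number 3 (RefSeq, GRCm38.p6, from 250 bases before to 50 after the start site, with CACCC or GGGTG in capitals).

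Klf2 (chr8:72318812-72319111, + strand): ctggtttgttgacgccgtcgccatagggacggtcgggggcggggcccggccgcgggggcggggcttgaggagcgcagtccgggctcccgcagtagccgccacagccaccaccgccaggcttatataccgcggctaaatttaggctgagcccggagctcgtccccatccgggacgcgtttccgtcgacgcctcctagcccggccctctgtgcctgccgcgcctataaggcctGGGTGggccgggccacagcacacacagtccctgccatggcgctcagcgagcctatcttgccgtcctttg

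Klf3 (chr5:64803271-64803570, + strand): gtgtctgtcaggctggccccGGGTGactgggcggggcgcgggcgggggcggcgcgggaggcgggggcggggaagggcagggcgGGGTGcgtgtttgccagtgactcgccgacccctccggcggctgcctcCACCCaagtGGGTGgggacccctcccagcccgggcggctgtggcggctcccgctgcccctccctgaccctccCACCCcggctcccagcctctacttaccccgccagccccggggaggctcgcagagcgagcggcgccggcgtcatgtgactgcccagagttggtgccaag

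The Klf2 window held 1 match to CACCC and the Klf3 window 5, a number of at least 4 that 3.10% of all promoters reached. Of the other members Cd80 held 6 matches, Pdcd1lg2 3, and Zbtb32 and Cd38 1 each, so that Tle3 was the only member without the letters in its window.

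Other genes with a known part in lymphocyte homing were set beside Klf2, a choice made after their values were seen. S1pr1, the receptor for the egress signal S1P, had 9.95 and 9.58 CPM in HOMO CC and 2.09, 1.45 and 22.7 CPM in WT CC. In CB, S1pr1 had 8.39 and 9.01 CPM in HOMO and 11.0, 8.52 and 14.4 CPM in WT. S1pr1 was highest in WT number 3 within each fraction, as Klf2 was, and in CC the HOMO libraries lay between WT number 3 and WT numbers 1 and 2. Klf4, another Krüppel-like factor, was likewise highest in WT number 3, with 0.793 and 3.99 CPM in HOMO CC, 0.288, 0.207 and 8.57 CPM in WT CC, 1.21 and 2.14 CPM in HOMO CB and 0.512, 0.721 and 6.79 CPM in WT CB. Ccr7, the receptor that guides cells to the T cell zone, had 2.07 and 2.37 CPM in HOMO CC, 0.0821, 0.466 and 6.04 CPM in WT CC, 0.842 and 1.02 CPM in HOMO CB and 0.236, 0.515 and 1.99 CPM in WT CB. It too was highest in WT number 3. Naive follicular B cells express Ccr7, and the summed level of 8 naive follicular markers, Ccr7 among them, was 806 and 733 CPM in HOMO CC, 816, 852 and 806 CPM in WT CC, 552 and 514 CPM in HOMO CB and 607, 637 and 551 CPM in WT CB. The sum of 9 neutrophil markers was 130 and 14.6 CPM in HOMO CC, 0.246, 0 and 15 CPM in WT CC, 160 and 7.80 CPM in HOMO CB and 0.945, 0.0344 and 14.3 CPM in WT CB. The part of these cell types in the levels of Klf2 and Ccr7 was not tested.

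**Figure D3:**
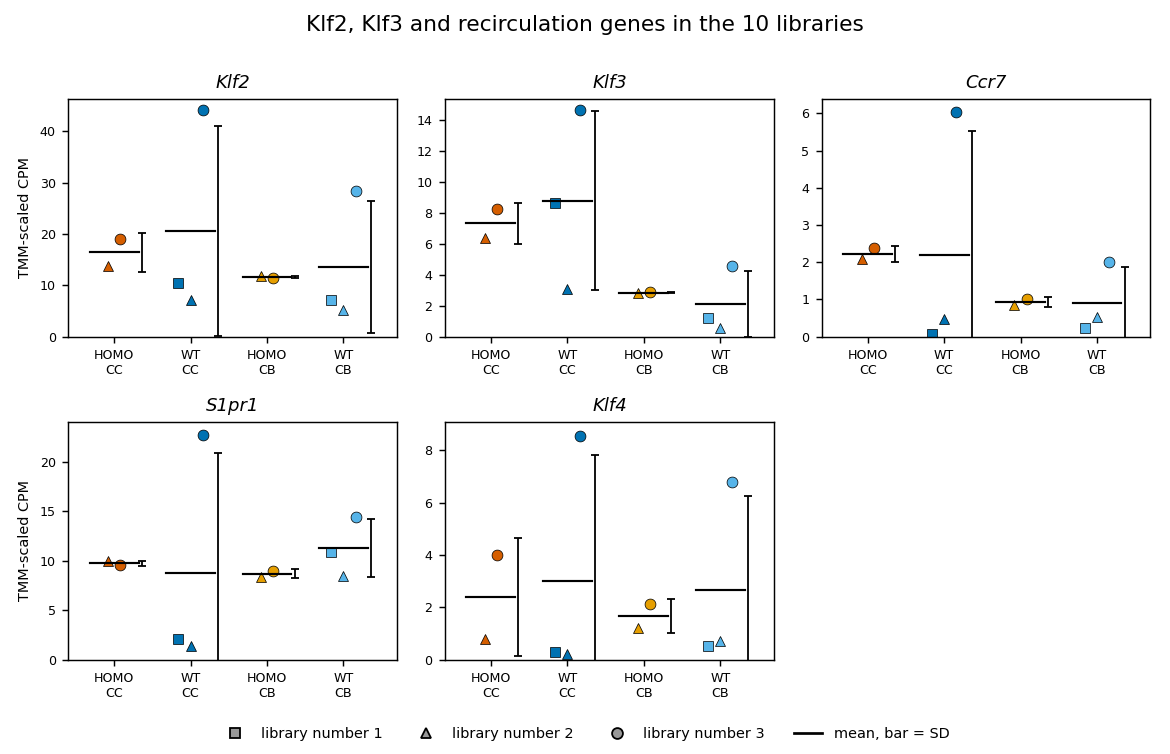
TMM-scaled CPM (vertical axis) of Klf2, Klf3, Ccr7, S1pr1 and Klf4 in the 10 libraries, grouped as HOMO CC, WT CC, HOMO CB and WT CB, with a symbol for each library number, a line for the mean and a bar for the SD, which is cut at 0. WT number 3 is the highest WT library of its fraction in each panel, at 44.2 CPM in CC and 28.4 CPM in CB for Klf2.

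Other genes known from memory B cells, 18 in a list that holds none of the members, were called in both directions: 4 rose and 2 fell in HOMO CC, and 7 rose and 3 fell in WT CC. Over all genes 5.45% were called in HOMO and 23.9% in WT. Among the alternatives these shares reached 30.4% in HOMO with only the groups compared and 46% in WT without both libraries of WT number 3. The ranges of list counts given here and below stand beside those shares. Zeb2, a zinc finger factor, rose with log2 changes of 1.37 in HOMO and 1.71 in WT. Cr2, complement receptor 2, rose with 0.84 and 0.81 in HOMO and WT, and Fcer2a, the low-affinity IgE receptor CD23, with 1.88 and 1.71. Bach2, a repressor known to favour the memory over the plasma cell fate, was among those that fell in both genotypes, though not among the 3 genes with the smallest p. The calls of Zeb2, Cr2 and Fcer2a held in all 23 alternatives, while the number of the list called ranged from 3 to 13 in HOMO and from 6 to 14 in WT. The sum of 11 T cell markers was higher in CC, with 134 and 119 CPM in HOMO CC against 76.4 and 70.1 CPM in HOMO CB, and with 158, 226 and 202 CPM in WT CC against 79.2, 117 and 109 CPM in WT CB. Lck made most of that sum, with 120 and 110 CPM in HOMO CC, 154, 224 and 187 CPM in WT CC, 70.1 and 63.4 CPM in HOMO CB and 78.0, 116 and 101 CPM in WT CB, while Cd3e, which defines T cells, had at most 1.77 CPM in any library.

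Of 15 germinal center genes, with Pax5 also among the pan B cell markers, 2 fell and 0 rose in HOMO CC, and 5 fell and 3 rose in WT CC. Calls over all genes stood at 5.45% in HOMO and 23.9% in WT. Gcsam, which encodes a signalling adaptor of germinal center B cells, fell with log2 changes of -2.32 in HOMO and -2.47 in WT in all 23 alternatives. The count ranged from 1 to 12 in HOMO and from 3 to 14 in WT over the alternatives. The highest came in HOMO with only the groups compared (30.4% of all genes) and in WT without WT number 3 (46%). Of 11 plasma cell fate genes tested, 1 fell in HOMO CC, and 3 fell and 1 rose in WT CC, with ranges of 0 to 5 in HOMO and 2 to 9 in WT. Jchain, the joining chain of secreted antibody, fell with -1.43 in HOMO and -1.49 in WT, and in HOMO this call was lost without any 1 HOMO library (edgeR adjusted p of 0.0516 to 0.0816).

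Of 10 other Krüppel-like genes tested (of 15), 1, Klf12, rose in HOMO CC, 3 rose in WT CC and none fell (ranges 0 to 4 in HOMO and 1 to 4 in WT), beside calls in 5.45% and 23.9% of all genes. Klf12, a repressor of that family, had log2 changes of 1.497 in HOMO and 1.54 in WT, and the HOMO call was lost without any 1 HOMO library (edgeR adjusted p of 0.126 to 0.213). Of 11 TLE family and partner repressors tested (of 13), 1 rose in HOMO CC, 3 rose in WT CC and none fell, with ranges of 0 to 3 in HOMO and 1 to 7 in WT. Tle2, a relative of Tle3, had a log2 change of 2.89 in HOMO, lost without any 1 HOMO library (edgeR adjusted p of 0.0764 to 0.205), and of 2.24 in WT, lost without both libraries of WT number 1 (0.0936) or 2 (0.0814) or WT CC libraries 1 and 2 (0.149). Ctbp2 was called in WT with edgeR adjusted p = 0.0494, but was highest in WT CC library 1, as the macrophage sum was, and passed in 7 of the 16 alternatives that tested it.

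Of 7 other B7 family members and ligands of T cell receptors tested (of 9), 3 rose in HOMO CC, 5 rose in WT CC and none fell. Here and for the list that follows, 5.45% of all genes were called in HOMO and 23.9% in WT. Cd86, the closest relative of Cd80, rose with log2 changes of 0.76 in HOMO and 0.80 in WT, although in HOMO the call was lost without HOMO CB library 3 (edgeR adjusted p = 0.0516). Cd40, the receptor for T cell help, rose with 1.13 in HOMO and 1.03 in WT in all 23 alternatives. The number called ranged from 1 to 4 in HOMO and from 2 to 6 in WT. Cd80 and Pdcd1lg2, with changes near 0 and SEs of 0.25 to 0.32, were not called beside them. Vsir, among the 5 that rose in WT, had 24.0, 8.54 and 6.81 CPM in WT CC and 4.03 and 1.04 CPM in HOMO CC. Of 10 genes tested (of 12) that make or use the products of Cd38 and CD73, 2 fell in HOMO CC, and 2 rose and 2 fell in WT CC, with ranges of 1 to 5 in HOMO and 2 to 7 in WT. Entpd1, among the 2 that rose, had 11.2, 4.56 and 5.20 CPM in WT CC and 1.71 and 1.23 CPM in HOMO CC. Vsir and Entpd1 were highest in WT CC library 1, as the macrophage sum was, and the part of macrophage RNA in their calls was not tested. Ada, which breaks down adenosine, fell with -0.99 in HOMO and -1.31 in WT in all 23 alternatives, the same direction as Nt5e, which makes adenosine. Enpp1, another ectoenzyme that yields AMP, fell with -0.56 in HOMO and -0.66 in WT, and in HOMO the call was lost without any 1 HOMO library (edgeR adjusted p of 0.0665 to 0.0852).

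**Figure D4:**
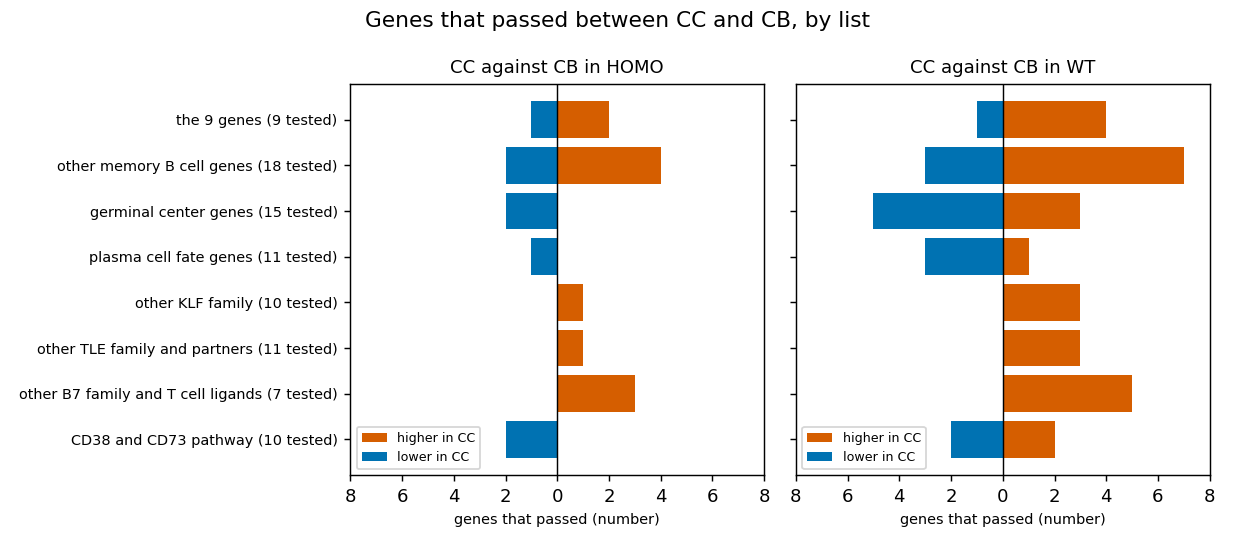
Number of genes called higher and lower in CC than in CB (horizontal axis, edgeR adjusted p under 0.05) in the members and in 7 lists of related genes, for HOMO and WT. Calls in the B7 list, the Krüppel-like list and the TLE list are all higher in CC, and the germinal center and plasma cell lists hold more calls lower than higher.

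Between genotypes none of the 9 members passed in CC or in CB by edgeR, where 0% and 0.0241% of all genes were called. The targeted gene Pbrm1 itself did not pass in CC (log2 change -0.68, edgeR adjusted p = 0.0564), though it did in CB (-0.88, adjusted p = 0.00954). DESeq2 called none of the 9 either, beside 4.92% of all genes in CC and 1.67% in CB, and at an unadjusted p under 0.05 edgeR passed 0 of the 9 but 3142 genes in CC and 2079 in CB. The median log2 change of the members, HOMO over WT, was -0.26 in CC and -0.02 in CB, beside -0.03 and -0.04 over all genes tested. Groups did not overlap for 2 members lower in HOMO CC (17.4% of all genes), 0 higher in HOMO CC (17.7%), 1 higher in HOMO CB (18.8%) and 0 lower in HOMO CB (16.4%).

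Tle3 and Zbtb32 were the members whose HOMO CC libraries both lay under every WT CC library. Tle3 averaged 82.2 ± 3.54 CPM in HOMO CC (SD, n = 2) and 101 ± 12 CPM in WT CC (n = 3), and its log2 change was -0.30 (SE 0.14, edgeR adjusted p = 0.283). Zbtb32 averaged 3.76 ± 0.0515 CPM in HOMO CC and 5.40 ± 0.489 CPM in WT CC, and its log2 change was -0.52 (SE 0.27, edgeR adjusted p = 0.31). In CB the member higher in both HOMO libraries was Cd38, with 23.0 ± 2.01 CPM in HOMO CB and 17.4 ± 3.02 CPM in WT CB and a difference of 0.40 on the log2 scale (SE 0.21, edgeR adjusted p = 0.459). These 3 shifts were within 1.5-fold and did not pass.

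None of the other members passed between genotypes. Hhex averaged 8.87 ± 0.0605 CPM in HOMO CC and 8.95 ± 1.52 CPM in WT CC, with log2 changes of -0.01 (SE 0.33) in CC and 0.07 (SE 0.33) in CB. Nt5e averaged 53.2 ± 5.0 CPM in HOMO CC and 44.6 ± 6.67 CPM in WT CC, and its log2 change was 0.26 in CC (SE 0.13, edgeR adjusted p = 0.30) and -0.02 in CB (SE 0.12). Klf2 averaged 16.4 ± 3.78 CPM in HOMO CC, 20.6 ± 20.5 CPM in WT CC, 11.6 ± 0.220 CPM in HOMO CB and 13.6 ± 12.9 CPM in WT CB, and its SE of 0.97 and 0.94 leaves a wide range of genotype differences undetectable. Klf3, Cd80 and Pdcd1lg2 had log2 changes of -0.26, -0.25 and -0.32 in CC and 0.39, 0.13 and -0.33 in CB. The interaction of genotype and fraction passed for no member and for 0% of all genes in edgeR and DESeq2 (434 genes at an unadjusted p under 0.05 in edgeR, none of them a member), with 0.28 for Nt5e (SE 0.18).

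The genotype values depended on WT number 3. Without both of its libraries, edgeR called 4 members in CC, against 31.3% of all genes, and 3 in CB, against 30.4%. In CC, Klf2 (0.91, adjusted p = 0.00697), Cd38 (0.59, adjusted p = 0.00474) and Nt5e (0.41, adjusted p = 0.00248) were then higher in HOMO and Tle3 lower (-0.36, adjusted p = 0.00803). In CB, Klf2 (0.96, adjusted p = 0.00454), Klf3 (1.76, adjusted p = 0.0174) and Cd38 (0.50, adjusted p = 0.0112) were higher in HOMO. Klf2 thus had the opposite sign to its values of -0.32 and -0.24 with all libraries. Leaving out WT CC library 3 alone gave Cd38 (0.57, adjusted p = 0.0441) and Nt5e (0.39, adjusted p = 0.0271) in CC by edgeR, against 14.8% of all genes. Without WT number 3 the interaction passed for Nt5e (0.42, edgeR adjusted p = 0.0349), beside 8.98% of all genes.

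Library composition moved with these groups. The rank correlation across 8802 genes of the library's deviation with GC content was -0.173 and -0.222 in HOMO CC, 0.431, 0.552 and 0.152 in WT CC, -0.632 and -0.605 in HOMO CB and 0.150, 0.248 and -0.457 in WT CB, so that WT number 3 lay nearest the HOMO libraries in each fraction. With an offset for GC content and without WT number 3, a setting chosen after the values of Klf2 and Klf3 were seen, edgeR called Klf2 (1.34, adjusted p = 0.00166) and Nt5e (0.36, adjusted p = 0.00849) in CC, against 22.1% of all genes. The same setting called Klf2 (1.37, adjusted p = 0.00145) and Klf3 (1.70, adjusted p = 0.0316) in CB, against 16.5%. Shares of this size in all genes stand beside those counts, and no count of members between genotypes is read as a result about them. In the edgeR fit of all 10 libraries none of the 7 lists of related genes had a gene called between genotypes. DESeq2 with all libraries did call from the other memory and germinal center lists in both fractions, and from the B7 list in CC.

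**Figure D5:**
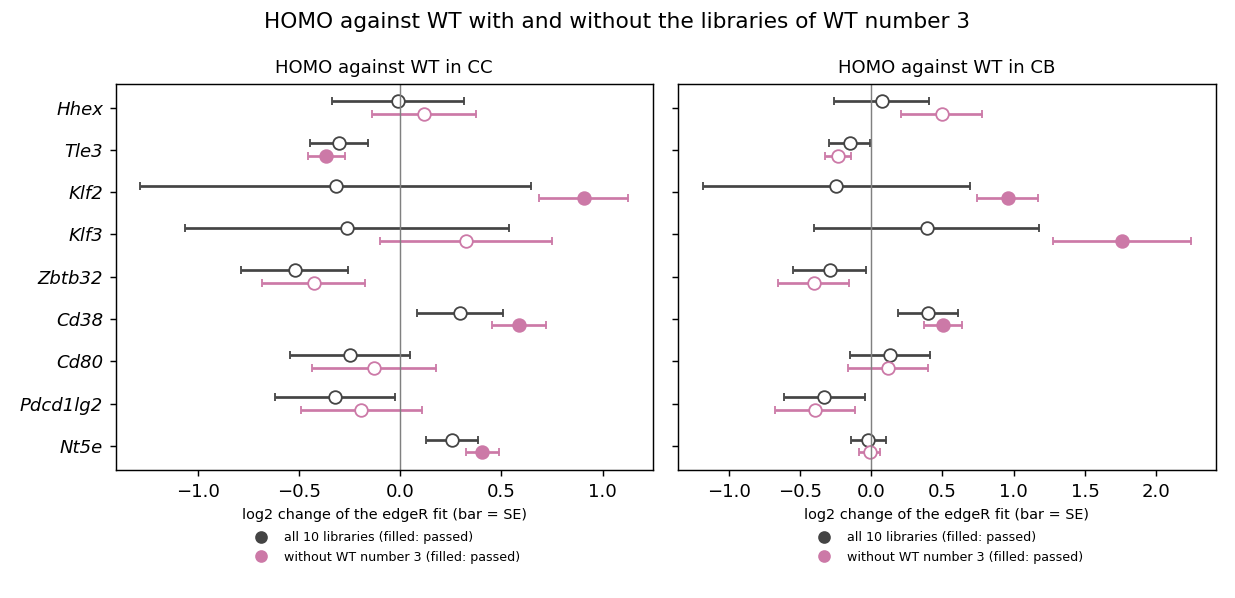
Log2 change of each member, HOMO over WT (horizontal axis), in CC and in CB, with all 10 libraries and without both libraries of WT number 3, with SEs as bars and filled points for an edgeR adjusted p under 0.05. Klf2 lies at -0.32 in CC and -0.24 in CB with all libraries and at 0.91 and 0.96 without WT number 3.

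Divided by exon length, the levels of the members can be set in order. In HOMO CC the mean was 10.7 CPM per kb for Cd38, 8.88 for Klf2, 7.05 for Tle3, 6.19 for Nt5e, 1.98 for Pdcd1lg2, 1.75 for Hhex, 1.59 for Zbtb32, 0.902 for Cd80 and 0.652 for Klf3. In WT CC it was 11.2 CPM per kb for Klf2, 8.72 for Cd38, 8.69 for Tle3, 5.18 for Nt5e, 2.48 for Pdcd1lg2, 2.29 for Zbtb32, 1.77 for Hhex, 1.08 for Cd80 and 0.784 for Klf3. Neighbours whose means lay within their SDs were Cd38, Klf2 and Tle3 at the top and Cd80 and Klf3 at the bottom of both lists, Tle3 and Nt5e in HOMO CC, and Pdcd1lg2 and Zbtb32 in WT CC.

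In CB, Nt5e had the highest mean in both genotypes, with 13.8 ± 0.844 CPM per kb in HOMO (SD, n = 2) and 14.0 ± 0.495 CPM per kb in WT (n = 3). Klf2 followed with 6.30 ± 0.119 and 7.34 ± 7.0 CPM per kb in HOMO and WT, Cd38 with 5.91 and 4.47, Tle3 with 3.68 and 4.07, and Pdcd1lg2 with 1.72 and 2.15. Cd80 had 1.14 and 1.04 CPM per kb and Zbtb32 1.05 and 1.29, in HOMO and WT, in the opposite order in each genotype. Hhex and Klf3 were the lowest members in CB, with 0.428 and 0.254 CPM per kb in HOMO and 0.396 and 0.186 CPM per kb in WT. Neighbours whose means lay within their SDs were Klf2 and Cd38, Pdcd1lg2 and Cd80, and Cd80 and Zbtb32 in HOMO CB, and Nt5e and Klf2, Klf2 and Cd38, Cd38 and Tle3, Zbtb32 and Cd80, and Hhex and Klf3 in WT CB.

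Over the 10 libraries, which share the split into fractions, log2 CPM of Tle3 and Nt5e were opposed (Pearson r = -0.964, n = 10), as were Hhex and Nt5e (r = -0.935), while Hhex and Tle3 went together (r = 0.876). Klf2 showed almost no relation to Tle3 (r = 0.0692) and went with Klf3 (r = 0.791), and Cd80 had no r beyond 0.171 in size with any member. Among 8252 genes, those most like Hhex were Kctd12 (r = 0.983) and Tox (r = 0.981), and those most like Tle3 were Fcer2a (r = 0.991) and Lmo2 (r = 0.99). The nearest to Nt5e were Ube2j1 (r = 0.997) and Foxo1 (r = 0.996), and to Cd38 Gpr55 (r = 0.967) and Nab1 (r = 0.964). The nearest to Klf2 were Ifrd1 (r = 0.971) and Id2 (r = 0.958), to Klf3 Bcas3 (r = 0.97) and Cdk8 (r = 0.957), and to Zbtb32 Klf16 (r = 0.96) and Kptn (r = 0.958). Cd80 and Pdcd1lg2 had looser neighbours, Mesd (r = 0.927) and Zbtb18 (r = 0.819) for Cd80 and Zmiz1 (r = 0.897) and Secisbp2l (r = 0.82) for Pdcd1lg2. These are descriptions of 10 libraries that share depth and fraction, with no test.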

How the data were processed

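Gene expression was measured by RNA-seq in 10 mouse libraries, which were put into 4 groups by their titles. The authors deposited 1 table of raw read counts (whole numbers) for each gene, with its length. Per the submitters' processing notes the tools were FastQC, STAR, Subread, featureCounts and R 4.2.1 on mm10, with no setting given in the sources used here for strand or multiply matching reads. Per the labels, RNA was made into libraries with the KAPA RNA HyperPrep kit after depletion of ribosomal RNA. HOMO columns are numbered 2 and 3 and HOMO titles 1 and 2, so a HOMO column was assigned to its group only. Symbols came from GENCODE M21 for 54587 identifiers matched with their version and 567 matched without it.

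Counts were filtered with filterByExpr (minimum count 10, minimum total 15) and scaled with TMM factors. One fit with a mean for each of the 4 groups covered all 10 libraries, in edgeR 4.0.16 (R 4.3.3, robust quasi-likelihood F-test), and p-values were adjusted by Benjamini-Hochberg over 16596 genes, and called under 0.05. The biological coefficient of variation came to 23.1%. DESeq2 1.42.0 and limma 3.58.1 served in alternatives. An SE is the size of the log2 change divided by the root of its F statistic. CPM are TMM-scaled, and correlations use log2 CPM with a prior count of 2 and genes of an average log2 CPM of at least 3. The fits were tested on simulated counts. Library pairs of a group differed by more than sampling noise (chi-square per degree of freedom 4.14 to 80.7).

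The members, the lists of related genes and the markers were chosen with earlier results of these data known. All members are named, and of each list up to 3 genes with the smallest p among those called in a comparison. Bach2, Vsir, Entpd1 and the genes said to be chosen after their values were seen are named besides. Some genes that this rule takes are not reported here. WT numbers were taken to pair libraries, since deviations of same-numbered WT CC and CB libraries correlated (r = 0.301, 0.426 and 0.436 over 8805 genes) and those of other pairs ranged from -0.411 to 0.278. These are deviations from the mean of 3 libraries, so a number 3 that stands apart shapes them by itself. They separate numbers 1 and 2 only weakly: WT CC library 2 with WT CB library 1 gave 0.278, close to the 0.301 of number 1. This pairing comes from the data and not from a label, and HOMO libraries were not paired in any fit. Alternatives were another test, scaling, filters, only the groups compared, each library or WT number left out, WT CC libraries 1 and 2 left out, a GC content offset and a block of WT numbers.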

Additional observations from a re-analysis of the deposited data

How the results depend on the processing

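Of 1008 values of the 9 members under the alternatives, 884 kept their direction and their side of the threshold, 38 came to pass, 17 no longer passed, 65 changed sign with no call on either side and 4 turned round with a call. Those 4 were Klf2, HOMO over WT, without WT number 3 (0.907 in CC and 0.957 in CB) and with the GC content offset as well (1.34 in CC and 1.37 in CB). The number of members called between fractions in HOMO, 3 with all libraries, was 5 with no filter on low counts, without WT number 3, with the replicate block as a fixed term, and with that GC content offset minus WT number 3. The shares of all genes called there were 5.04%, 23%, 13.8% and 19.9%. It was 6 with only the groups compared (30.4% of all genes), and 1 to 4 when single libraries were left out. The shares of all genes were then 0.976% to 1.45% without a HOMO library and 3.93% to 9.7% without a WT library. Nt5e alone remained without HOMO CB library 3, HOMO CC library 2 or HOMO CC library 3. In WT the count, 5, was 4 to 6 when single libraries were left out (12.7% to 32.5% of all genes). Between genotypes the count, 0 in both fractions, was 4 in CC and 3 in CB without WT number 3, and 2 in each with the GC content offset as well. When single libraries were left out it was 0 to 2 in CC, with 2 only without WT CC library 3 (14.8% of all genes). In CB it was then 0, beside at most 12.1% of all genes. The interaction count was 1 without WT number 3. The cause was not tested. Under the random replicate block in limma-voom (correlation 0.307) 4 members were called in HOMO and 6 in WT between fractions (4.99% and 33.6% of all genes), and 0 between genotypes, and the blocks changed no call of a member other than those of Klf2, Klf3 and Cd38 given above. Lists of related genes, with none called between genotypes in the edgeR fit of all 10 libraries, had up to 9 called in CC and up to 11 in CB without WT number 3. The shares of all genes called without WT number 3 were 31.3% in CC and 30.4% in CB. With 2 HOMO libraries per fraction and 16 to 60 counts for the lowest values of Klf3, small differences of the low members were not detectable.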
